A study of Saccharomyces cerevisiae and Kluyveromyces marxianus with 18 samples.

Results

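Oxygen-limited and aerobic chemostats of Saccharomyces cerevisiae were compared gene by gene, using all genes of the deposited count table. The 4 libraries compared were chosen by their labels, out of 18 in the series: 2 from oxygen-limited and 2 from aerobic cultures of the wild-type laboratory strain CEN.PK113-7D. The series set the thermotolerant yeast Kluyveromyces marxianus beside S. cerevisiae, with a title on sterol requirements and growth without oxygen. The labels give every culture a dilution rate of 0.1 per hour, pH 6, a synthetic medium with urea as nitrogen source and the antifoam pluronic acid. RNA was poly(A)-selected and sequenced as stranded libraries. Ergosterol was supplied at 10 mg/L to both groups. The labels list glucose at 7.5 g/L for the aerobic cultures and at 20 g/L for the oxygen-limited ones, which are also labelled micro-aerobic. They do not give the glucose level that remained in the cultures. Tween 80, whose oleate esters provide unsaturated fatty acid, was given at 420 mg/L to the oxygen-limited cultures and left out of the aerobic ones. Oxygen, glucose, Tween 80 and the run code (ELOX39 for aerobic, ELOX23 for oxygen-limited) all changed together. Their parts in any difference between these groups cannot be told apart.

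S. cerevisiae can grow with or without respiration. Molecular oxygen is the terminal electron acceptor of its respiratory chain and a substrate in the synthesis of ergosterol, unsaturated fatty acids and heme. When glucose is scarce and oxygen plentiful, the yeast derepresses genes for acetate and ethanol use, the glyoxylate cycle, gluconeogenesis and peroxisomal fatty acid breakdown. When oxygen falls, hypoxic genes are released from the repressor Rox1 and cells ferment glucose to ethanol.

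The aerobic libraries held 11471332 and 12164471 counts and the oxygen-limited libraries 9187608 and 9116773. The design text describes the replicates as biological. Of 6171 genes in the table, 5849 had enough counts to be tested. The a-mating-type gene STE2, the pheromone receptor of a cells, was at 329 and 328 CPM in aerobic and 439.9 and 402 CPM in oxygen-limited cultures, in CPM (counts scaled to a common library size). The alpha-cell receptor gene STE3 was at 39.0 and 51.1 CPM in aerobic and 57.4 and 51.1 CPM in oxygen-limited cultures. Levels below are CPM scaled between libraries by the TMM method, and paired values are replicates 1 and 2 of a group, in that order. Fold changes are log2 of oxygen-limited over aerobic, with a standard error (SE). A gene was called when edgeR's quasi-likelihood test gave a Benjamini-Hochberg adjusted p under 0.05 over all genes tested, and every adjusted p below is of that kind.

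The replicates of the oxygen-limited group stood apart from each other. The log2 difference between replicates had a standard deviation over 5849 genes of 0.468 in that group and 0.157 in the aerobic group. It reached 1 in either direction for 322 genes in the oxygen-limited group and for 0 in the aerobic group. Cytosolic ribosomal protein genes were higher in oxygen-limited replicate 1, with a median log2 difference between replicates of 0.88, and this held for 88 of 90 genes. Ribosome biogenesis genes were higher there in 74 of 75 genes, with a median of 1.07. Genes of cytochrome c oxidase, the last complex of the respiratory chain, were higher in replicate 1 in all 9 cases. Replicate 2 was the higher one for all 16 genes of nitrogen use and all 13 genes of fatty acid beta-oxidation, with medians of -0.72 and -0.66. Values for each replicate are therefore given for the main genes, and several list medians and counts are repeated with either replicate left out.

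**Figure D1:**
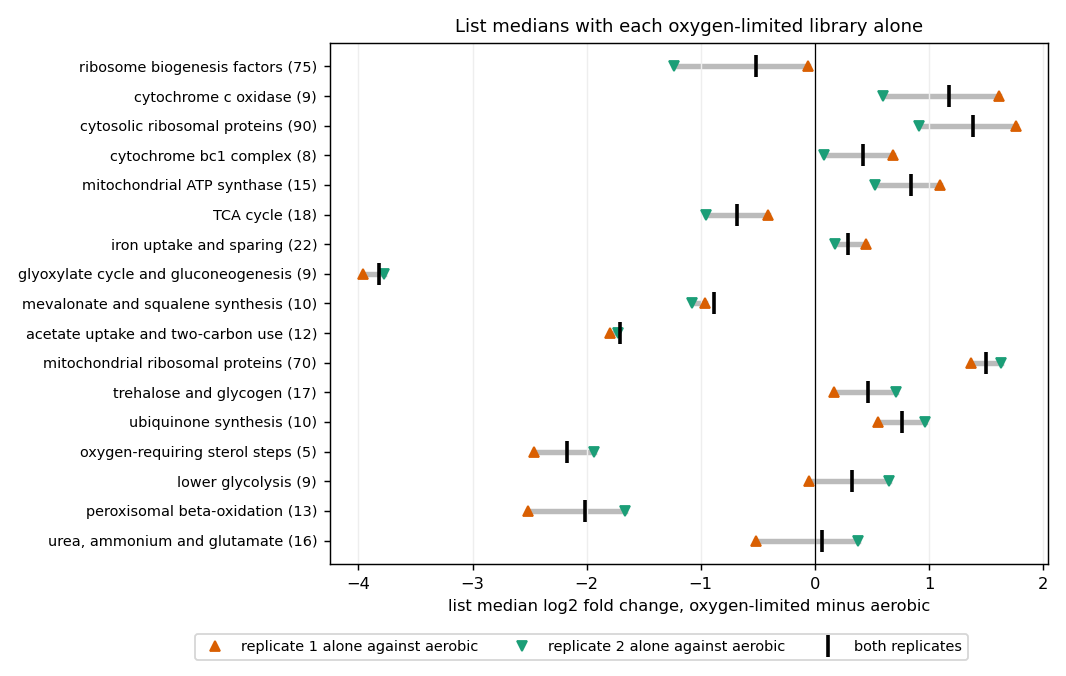
Median log2 fold change (oxygen-limited minus aerobic, x axis) of 17 gene lists, with both oxygen-limited replicates and with each of them alone, both against the aerobic replicates. Ribosome biogenesis lies at -1.23 with replicate 2 alone and at -0.06 with replicate 1 alone, while the glyoxylate and beta-oxidation lists lie far below 0 with either replicate.

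Fold changes also went with gene length. The tested genes were split by length into 5 classes of about equal size. In the class of the shortest genes (71 to 621 bases) the median log2 fold change was 0.77, and 59.7% were called higher against 9.08% called lower. In the class of the longest (2070 to 14733 bases) the median was -0.39, with 8.04% called higher and 52.6% called lower. Across 5849 genes, which are not independent replicates, Spearman's rho between fold change and length was -0.46. The median level of the shortest class relative to the longest was 0.71 and 0.68 (log2, relative to the mean of the 8 fitted libraries) in the oxygen-limited replicates and -0.35 and -0.42 in the aerobic ones. In K. marxianus the same contrast had medians between -0.21 and 0.05 over the classes. Results were therefore recomputed with each library's length trend removed, an alternative chosen after seeing the data that also removes any change that genuinely goes with length. The part of gene length in the results below was not tested further.

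**Figure D2:**
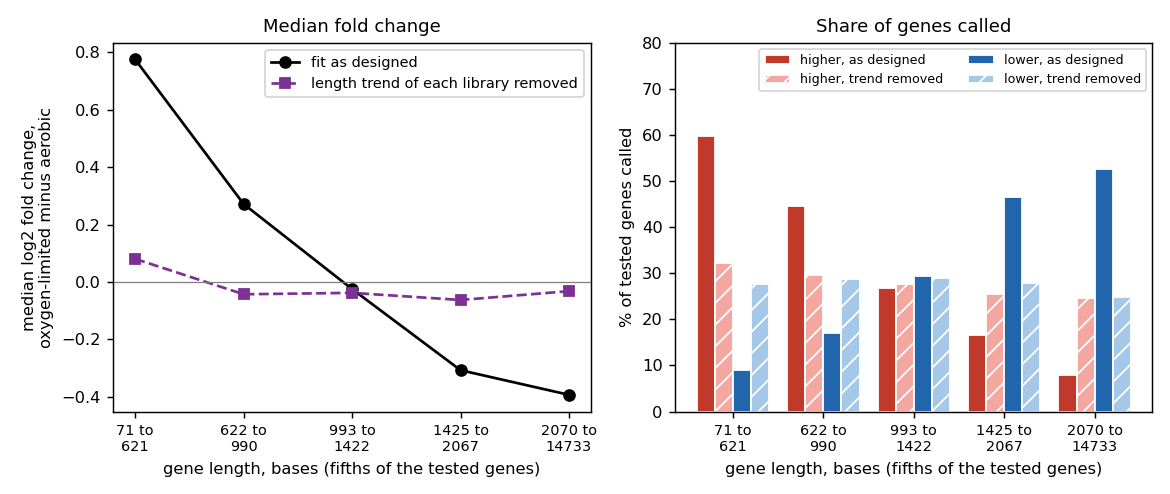
Median log2 fold change (left) and percentage of genes called higher or lower (right) in 5 classes of gene length, as fitted and after each library's length trend was removed. As fitted the median runs from 0.77 in the shortest genes to -0.39 in the longest, and with the trend removed it is 0.08 in the shortest, -0.03 in the longest and between -0.06 and -0.04 in the classes between.

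Of 5849 genes, 3628 were called between the oxygen-limited and aerobic groups, or 62%, with 1824 higher (31.2%) and 1804 lower (30.8%). That number depends on the libraries in the fit. It was 827 of 5868 with the unsupplemented libraries included, 2850 of 5874 and 2717 of 5870 without aerobic replicate 1 or 2, and 2356 of 5828 with the length trend removed over the 4 libraries alone. Counts for gene lists below are to be read against the shares over all genes, 31.2% higher and 30.8% lower. A log2 fold change of at least 1 was reached by 821 genes (14%), and one of -1 or below by 530 genes (9.06%). The median over all tested genes was -0.02. In bulk RNA, fewer cells that express a gene and less RNA per cell cannot be told apart, here and below. The authors' deposited table of this comparison lists 1335 genes of 5868 with an adjusted p under 0.05. Of these, 1332 were called in the same direction here.

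The genes with the lowest fold changes had varied roles. By a rule of size, the 12 lowest were ADY2, ADH2, FDH1, SCEN_P00250, IDP2, INO1, PMA2, ARO9, SFC1, ACS1, CTA1 and HXT5, and all lay at -4.70 or below. FDH1, which encodes formate dehydrogenase, was at 673 and 898 CPM in aerobic and 5.86 and 5.44 CPM in oxygen-limited cultures (log2 fold change -7.12, SE 0.22, adjusted p = 8.56e-07). INO1, the inositol-3-phosphate synthase of phospholipid synthesis, was at 1957 and 2102 CPM in aerobic and 37.8 and 72.3 CPM in oxygen-limited cultures (log2 fold change -5.20, SE 0.32, adjusted p = 1.48e-05). The aerobic libraries were far above both oxygen-limited ones for either gene. PMA2, a minor isoform of the plasma membrane proton pump that shares sequence with PMA1, fell from 355 and 454 to 10.7 and 12.9 CPM. ARO9, an aromatic aminotransferase, fell from 295 and 314 to 7.23 and 12.1 CPM. SCEN_P00250, which the files pair with no S288C entry, went from 949 and 1187 to 9.60 and 11.9 CPM (log2 fold change -6.63, SE 0.20, adjusted p = 8.56e-07). The libraries of the groups did not overlap for any of the 12 genes, which the rule required.

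**Figure D3:**
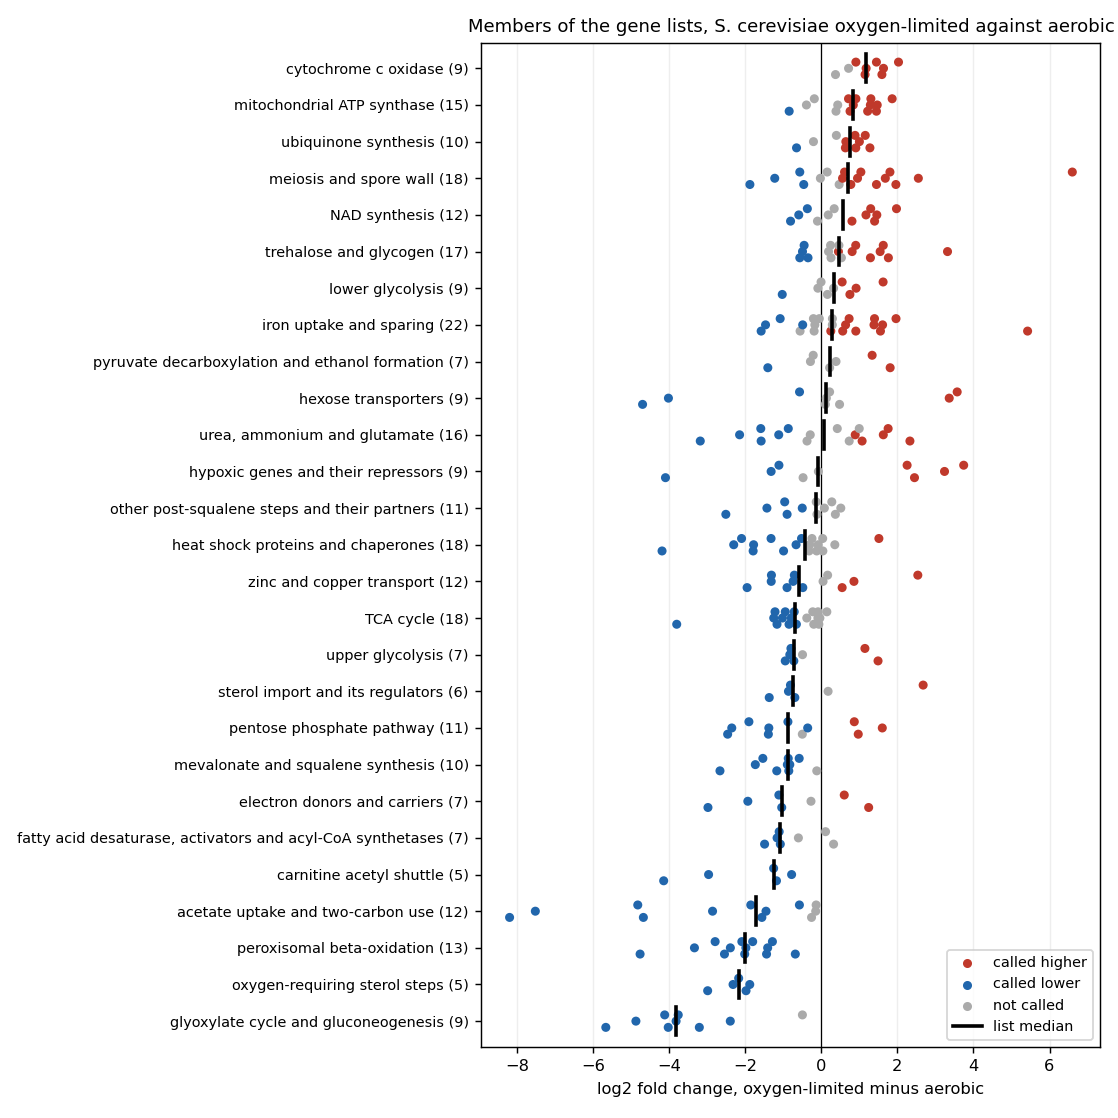
Log2 fold change (oxygen-limited minus aerobic, x axis) of every tested member of 27 gene lists, 1 point per gene, coloured by call, with a bar at each list's median. The glyoxylate list has a median of -3.82, beta-oxidation -2.02 and the oxygen-requiring sterol steps -2.17. Cytochrome c oxidase and ATP synthase lie at 1.18 and 0.84.

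Genes for the use of acetate and ethanol fell in 9 of 12 tested cases, and none was called higher, with a list median of -1.71 against -0.02 over all genes. Without oxygen-limited replicate 2, 10 were called lower and 1 higher. ADY2 (SCEN_C00900 in the authors' CEN.PK113-7D annotation, contig CP046083.1, 137422 to 138273, minus strand), which encodes an acetate transporter of the plasma membrane, was at 1840.3 and 2362 CPM in aerobic and 6.48 and 7.77 CPM in oxygen-limited cultures (log2 fold change -8.20, SE 0.23, adjusted p = 8.56e-07). ADH2 (SCEN_M04450, contig CP046093.1, 850154 to 851200, minus strand), the alcohol dehydrogenase that oxidises ethanol when glucose is low, was at 4737 and 4738 CPM in aerobic and 26.9 and 24.6 CPM in oxygen-limited cultures (log2 fold change -7.52, SE 0.20, adjusted p = 7.91e-07). The aerobic replicates of ADH2 were nearly equal, and for both genes each oxygen-limited library lay far below each aerobic one. ACS1, the acetyl-CoA synthetase of cells growing on acetate or ethanol, was at 3331 and 3684 CPM in aerobic and 136 and 111 CPM in oxygen-limited cultures (log2 fold change -4.83, SE 0.19, adjusted p = 2.25e-06). Its paralog ACS2, used on glucose, fell from 992 and 936 to 293 and 239.6 CPM (log2 fold change -1.86). ATO3, a related gene linked to ammonium export, had a log2 fold change of -4.68, and JEN1, the lactate and pyruvate transporter, one of -2.86. Among aldehyde dehydrogenases, the mitochondrial ALD4 fell from 5029 and 5193 to 1413 and 2314 CPM and the cytosolic ALD6 from 3956 and 3589 to 1181 and 1370.1 CPM. ACH1, ALD2 and ALD3 were not called, with log2 fold changes between -0.26 and -0.14.

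The glyoxylate cycle and gluconeogenesis fell in 8 of 9 genes, with a median of -3.82. ICL1, isocitrate lyase, the enzyme that commits isocitrate to the glyoxylate cycle, was at 1299 and 1285 CPM in aerobic and 78.1 and 80.5 CPM in oxygen-limited cultures (log2 fold change -4.03, SE 0.12, adjusted p = 8.56e-07). MLS1, malate synthase, the other enzyme specific to the cycle, was at 159 and 162 CPM in aerobic and 19.6 and 15.2 CPM in oxygen-limited cultures (log2 fold change -3.21, SE 0.13, adjusted p = 2.35e-06). For gluconeogenesis, PCK1 (phosphoenolpyruvate carboxykinase) was at 328 and 313 CPM in aerobic and 20.7 and 26.4 CPM in oxygen-limited cultures (log2 fold change -3.76, SE 0.15, adjusted p = 2.01e-06), and FBP1 (fructose-1,6-bisphosphatase) had a log2 fold change of -3.82. Levels in the oxygen-limited replicates lay far below the aerobic ones for each of these enzymes. IDP2, a cytosolic isocitrate dehydrogenase that makes NADPH, was at 1873 and 1832 CPM in aerobic and 41.3 and 31.6 CPM in oxygen-limited cultures (log2 fold change -5.67, SE 0.24, adjusted p = 2.86e-06). SFC1, the mitochondrial succinate-fumarate carrier that links the cycle to the mitochondrion, fell from 929 and 953 to 34.9 and 29.2 CPM. MDH2, the cytosolic malate dehydrogenase, had a log2 fold change of -4.12. CIT2, the peroxisomal citrate synthase, was not called (log2 fold change -0.50, adjusted p = 0.161). With the length trend removed, the list's median was -3.79, and 8 genes were again called lower.

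**Figure D4:**
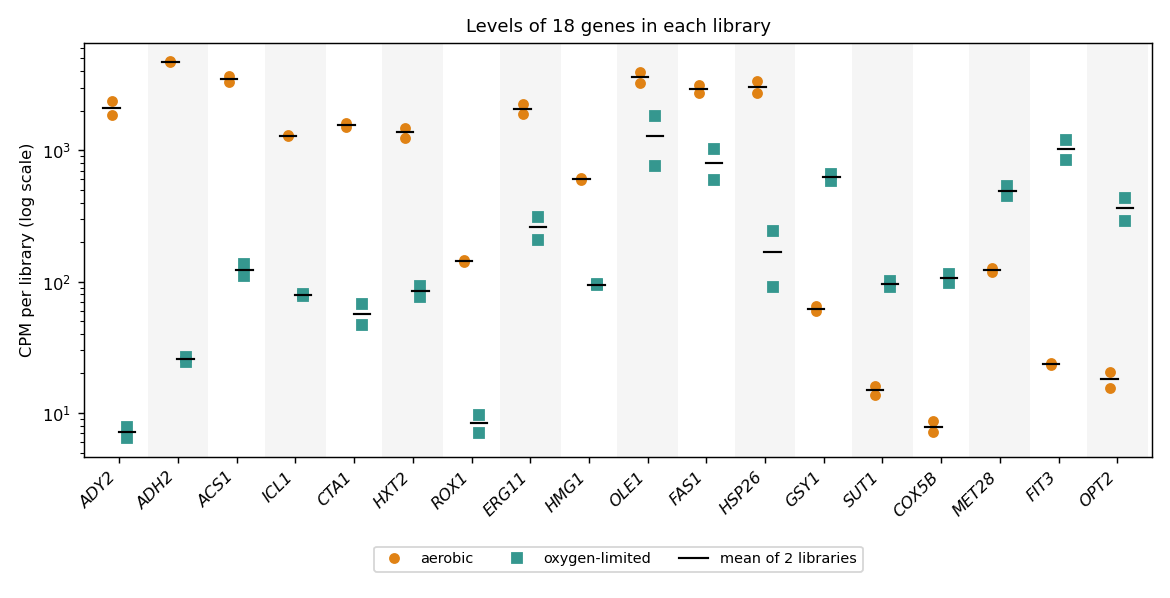
CPM (log axis) of 18 genes in each of the 2 aerobic and 2 oxygen-limited libraries, 1 point per library. ADY2, ADH2, ACS1, ICL1, CTA1, HXT2 and ROX1 lie far lower in both oxygen-limited libraries, and SUT1, COX5B, FIT3 and OPT2 far higher, while the oxygen-limited points of OLE1 are spread from 753 to 1818.

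Peroxisomal beta-oxidation, the pathway that shortens fatty acids by acetyl-CoA units, fell in all 13 tested genes, in cultures that received Tween 80 against aerobic ones that did not. The median was -2.02, and -1.67 and -2.52 without oxygen-limited replicate 1 or 2. POX1, the acyl-CoA oxidase that opens the cycle, was at 844 and 987 CPM in aerobic and 97.0 and 167 CPM in oxygen-limited cultures (log2 fold change -2.79, SE 0.24, adjusted p = 7.14e-05). FOX2, the multifunctional second enzyme, was at 824 and 931 CPM in aerobic and 67.0 and 106 CPM in oxygen-limited cultures (log2 fold change -3.34, SE 0.23, adjusted p = 2.59e-05). POT1, the thiolase that closes the cycle, was at 232 and 268 CPM in aerobic and 29.4 and 55.8 CPM in oxygen-limited cultures (log2 fold change -2.55, SE 0.27, adjusted p = 0.000149). In each of the 3 enzymes oxygen-limited replicate 2 was the higher one and still lay below both aerobic libraries. CTA1 (peroxisomal catalase, which breaks down the hydrogen peroxide that Pox1 makes) was at 1491 and 1619 CPM in aerobic and 46.6 and 67.5 CPM in oxygen-limited cultures (log2 fold change -4.77, SE 0.20, adjusted p = 3.16e-06). The fatty acyl-CoA importer subunits PXA1 and PXA2 had log2 fold changes of -2.02 and -1.29.

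Carnitine shuttle genes, which move acetyl units into mitochondria, fell in all 5 cases. YAT2, a carnitine acetyltransferase, was at 1076 and 1189 CPM in aerobic and 69.6 and 58.4 CPM in oxygen-limited cultures (log2 fold change -4.15, SE 0.15, adjusted p = 1.48e-06). CAT2, the main acetyltransferase of peroxisomes and mitochondria, had a log2 fold change of -2.97, and the carrier CRC1 one of -0.78. Peroxins, the proteins that build peroxisomes, had mixed calls: 15 of 28 were called lower and 5 higher, with a median of -0.39. PEX11, which drives peroxisome division, fell from 513 and 484 to 166 and 174 CPM, and PEX34, which also acts on peroxisome number, rose from 47.4 and 47.7 to 109 and 107 CPM.

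Transcription factors of this programme did not move as 1 group, with 4 called higher and 7 lower among 15. ADR1, the activator of ADH2 and of peroxisomal genes, fell from 228 and 276 to 88.9 and 77.2 CPM (log2 fold change -1.60, SE 0.17, adjusted p = 0.000152). SIP4, a gluconeogenic activator, was at 129 and 156 CPM in aerobic and 13.3 and 12 CPM in oxygen-limited cultures (log2 fold change -3.49, SE 0.15, adjusted p = 3.01e-06). The oleate-response factor genes PIP2 and OAF1 fell by 1.51 and 0.93 on the log2 scale. CAT8, the main activator of gluconeogenic genes, was not called (log2 fold change -0.20, adjusted p = 0.18), nor was SNF1, the kinase upstream of it (log2 fold change -0.04, adjusted p = 0.801). HAP4, the regulated subunit of the activator of respiratory genes, had a log2 fold change of -0.49, which was not called with the length trend removed (-0.26, adjusted p = 0.151) or without aerobic replicate 1 or 2 (adjusted p = 0.0791 and 0.0619).

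Sterol synthesis fell at the steps that consume oxygen. All 5 listed genes of these steps were called lower, with a median of -2.17, or -1.94 and -2.46 without oxygen-limited replicate 1 or 2. ERG11 (SCEN_H00630, contig CP046088.1, 110641 to 112233, minus strand), the lanosterol demethylase, was at 2243 and 1883 CPM in aerobic and 207 and 313 CPM in oxygen-limited cultures (log2 fold change -2.99, SE 0.26, adjusted p = 7.36e-05). ERG1, squalene epoxidase, was at 928 and 774 CPM in aerobic and 179.6 and 252 CPM in oxygen-limited cultures (log2 fold change -1.98, SE 0.23, adjusted p = 0.000218). ERG25, the C-4 methyl oxidase, was at 1774 and 1520.2 CPM in aerobic and 313 and 417 CPM in oxygen-limited cultures (log2 fold change -2.17, SE 0.22, adjusted p = 0.000128). Both oxygen-limited replicates lay below both aerobic replicates in all 3 genes. ERG3 and ERG5, the desaturases late in the pathway, had log2 fold changes of -1.88 and -2.32. CYB5, the cytochrome b5 that passes electrons to several of these enzymes, fell from 311 and 267 to 47.8 and 53.5 CPM (log2 fold change -2.51, SE 0.14, adjusted p = 1.04e-05). In the anaerobic cultures with the same Tween 80 and ergosterol, ERG11 was at 1305 and 1187 CPM and ERG3 at 1048 and 924 CPM. These 2 libraries are given for their levels only.

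Of 11 other genes of the late sterol pathway, 5 fell and none was called higher, with a median of -0.13. Without oxygen-limited replicate 1 or 2 that median was -0.11 and -0.21, and 1 and 3 genes were called higher. ERG6, the sterol methyltransferase, fell by 1.43 on the log2 scale, and ERG2, ERG4, ERG26, ERG27 and ERG28 were not called. Upstream, the mevalonate pathway fell in 9 of 10 genes, with a median of -0.88, or -1.07 and -0.97 without oxygen-limited replicate 1 or 2. HMG1, the HMG-CoA reductase that prevails in aerobic cells, was at 610.3 and 595 CPM in aerobic and 93.9 and 96.0 CPM in oxygen-limited cultures (log2 fold change -2.67, SE 0.12, adjusted p = 3.74e-06). HMG2, its isozyme associated with low oxygen, was not called and was at 99.9 and 111 CPM in aerobic and 67.6 and 126 CPM in oxygen-limited cultures (log2 fold change -0.12, adjusted p = 0.692). HMG1 was thus far lower in both oxygen-limited libraries, while the libraries of the groups overlapped for HMG2. IDI1, which isomerises isopentenyl diphosphate, had a log2 fold change of -1.74.

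Sterol import genes, which yeast uses when it cannot make sterol, were low in both groups. AUS1, a sterol uptake transporter, was at 48.2 and 57.3 CPM in aerobic and 31.5 and 33.5 CPM in oxygen-limited cultures and at 765 and 573 CPM in the anaerobic cultures with both supplements. PDR11, the related transporter, was at 68.6 and 77.8 CPM in aerobic and 24.2 and 32.3 CPM in oxygen-limited cultures and at 209 and 157 CPM in those anaerobic cultures. The factor gene UPC2, which activates sterol and anaerobic genes, was at 25.4 and 23.3 CPM in aerobic and 10.8 and 16.8 CPM in oxygen-limited cultures and at 126 and 110.5 CPM in the anaerobic ones. AUS1, PDR11 and UPC2 were called lower in the oxygen-limited cultures, with log2 fold changes of -0.70, -1.37 and -0.81. The calls of AUS1 and UPC2 were lost with the length trend removed (-0.36 and -0.43, adjusted p = 0.0876 and 0.0901), and that of AUS1 also without aerobic replicate 2 (adjusted p = 0.0844). SUT1, a regulator of sterol uptake, went the other way and was at 16.2 and 13.8 CPM in aerobic and 101 and 90.8 CPM in oxygen-limited cultures (log2 fold change 2.68, SE 0.14, adjusted p = 9.3e-06). SUT1 was the 1 gene of 6 on this list called higher, and its groups did not overlap. Genes of sterol esters and storage lipid had 3 called higher, near the 31.2% over all genes, and 2 lower among 9. With the length trend removed, 5 were called higher and 1 lower, and the median went from 0.18 to 0.50. ARE2, the main sterol acyltransferase of aerobic cells, fell by 1.03 and its isozyme ARE1 rose by 0.63 on the log2 scale. The ARE1 call was lost without aerobic replicate 1 or 2 or oxygen-limited replicate 2 (adjusted p = 0.0762, 0.163 and 0.15).

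Of 7 genes for unsaturated fatty acid synthesis and fatty acid activation, 4 fell and none was called higher, but 2 were called higher and 3 lower with the length trend removed. OLE1, the sole fatty acid desaturase, was at 3268 and 3969.7 CPM in aerobic and 753 and 1818 CPM in oxygen-limited cultures (log2 fold change -1.49, SE 0.38, adjusted p = 0.00961). Its oxygen-limited replicates differed by more than 1 on the log2 scale and both lay below the aerobic ones. The log2 fold change of OLE1 was -0.98 without oxygen-limited replicate 1 and -2.28 without replicate 2, and the call was lost when the 4 libraries were fitted alone. SPT23, a membrane-bound activator of OLE1, fell from 148 and 148 to 67.1 and 72.7 CPM, while MGA2, its paralog, was not called (log2 fold change -0.60, adjusted p = 0.0921). FAA1 and FAA4, which activate imported fatty acids, had log2 fold changes of -1.11 and -1.16, and that of FAA4 was no longer called with the length trend removed (adjusted p = 0.0571) or without aerobic replicate 2 (adjusted p = 0.0537). Fatty acid synthesis and elongation had 1 called higher and 4 lower among 10. Fatty acid synthase subunit FAS1 was at 2734 and 3132 CPM in aerobic and 593 and 1016 CPM in oxygen-limited cultures (log2 fold change -1.87, SE 0.26, adjusted p = 0.000602). Its partner subunit FAS2 was not called (log2 fold change -0.50, adjusted p = 0.07), and ACC1, acetyl-CoA carboxylase, fell from 1316 and 1591 to 563 and 850.4 CPM.

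Of 9 hypoxic genes and repressors of such genes, 4 were called higher and 3 lower, against 31.2% and 30.8% of all genes. The lower ones included the repressors ROX1 and MOT3. COX5B, the low-oxygen isoform of a cytochrome c oxidase subunit, was at 7.12 and 8.66 CPM in aerobic and 97.6 and 114 CPM in oxygen-limited cultures (log2 fold change 3.74, SE 0.16, adjusted p = 3.46e-06), and CYC7, the low-oxygen cytochrome c, rose from 27.1 and 32.6 to 117 and 209 CPM (log2 fold change 2.45, SE 0.30, adjusted p = 0.00031). AAC3 and ANB1, an ADP/ATP carrier and a translation factor isoform used without oxygen, were called higher at low levels. AAC3 was at 1.04 and 1.49 CPM in aerobic and 6.73 and 5.55 CPM in oxygen-limited cultures and at 112 and 121 CPM in the anaerobic cultures with both supplements. ANB1 was at 0.64 and 0.149 CPM in aerobic and 6.11 and 1.55 CPM in oxygen-limited cultures and at 728 and 777 CPM in those anaerobic cultures. The log2 fold change of ANB1 was 1.99 without oxygen-limited replicate 1 and 3.93 without replicate 2. HEM13, the oxygen-consuming coproporphyrinogen oxidase of heme synthesis, is a classic hypoxic gene and was lower, at 109.6 and 101 CPM in aerobic and 29.4 and 54.6 CPM in oxygen-limited cultures (log2 fold change -1.32, SE 0.28, adjusted p = 0.00409). Its level was 1466 and 1407 CPM in the anaerobic cultures with both supplements. ROX1, the heme-dependent repressor of hypoxic genes, was at 142 and 147 CPM in aerobic and 7.11 and 9.66 CPM in oxygen-limited cultures (log2 fold change -4.10, SE 0.16, adjusted p = 1.99e-06). Both oxygen-limited libraries had ROX1 below 10 CPM, and the aerobic libraries had it above 100 CPM. MOT3, which represses hypoxic genes together with Rox1, fell by 1.12 on the log2 scale. The fumarate reductase genes FRD1 and OSM1 were not called (-0.48 and -0.08).

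The aerobic partner isoforms had 1 called higher and 2 lower among 6. HYP2, the counterpart of ANB1, fell by 1.08, while COX5A, the counterpart of COX5B, was not called (log2 fold change 0.72, adjusted p = 0.068). CYC1, the main cytochrome c, was called higher (1.24), a call lost with the length trend removed (0.45, adjusted p = 0.294) and without aerobic replicate 1 or 2 (adjusted p = 0.0669 and 0.0934). Heme metabolism had 4 genes called higher and 4 lower among 9: HEM2, HEM3, HEM12 and HEM15 rose, and HEM1, HEM13, HEM14 and the heme oxygenase HMX1 fell. The call of HEM3 was lost without aerobic replicate 1 or 2 (adjusted p = 0.0566 and 0.0762), and that of HEM15 without aerobic replicate 1 (adjusted p = 0.105). HEM14, protoporphyrinogen oxidase, another oxygen-using step, was at 58.5 and 60.2 CPM in aerobic and 8.11 and 26.5 CPM in oxygen-limited cultures (log2 fold change -1.76, SE 0.40, adjusted p = 0.006). The anaerobic wall mannoproteins were low in both groups, with 5 of 8 genes tested and 1 called higher. TIR1 was at 4.80 and 4.63 CPM in aerobic and 11.5 and 7.22 CPM in oxygen-limited cultures and at 2739 and 2311 CPM in the anaerobic cultures with both supplements, and its call did not hold with the length trend removed (adjusted p = 0.0937), nor without either aerobic replicate (adjusted p = 0.0787 and 0.0958) or oxygen-limited replicate 1 (adjusted p = 0.0553). DAN4 and TIR4 were not called (-0.11 and 0.19). Wall proteins made in air had 2 called higher and 3 lower among 10. Among them, CWP1 and TIP1 fell by 1.35 and 2.03 on the log2 scale.

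TCA cycle genes fell in 10 of 18 cases, none was called higher, and the median was -0.69. Without oxygen-limited replicate 1 the median was -0.96, and without replicate 2 it was -0.41, with 2 genes called higher. CIT3, a mitochondrial citrate and methylcitrate synthase, was at 389.5 and 474 CPM in aerobic and 41.6 and 20.4 CPM in oxygen-limited cultures (log2 fold change -3.80, SE 0.30, adjusted p = 4.66e-05), whereas the main citrate synthase CIT1 was not called (log2 fold change -0.38, adjusted p = 0.221). SDH2, the iron-sulfur subunit of succinate dehydrogenase, fell from 2150.5 and 2154 to 1077 and 730.1 CPM, and KGD2, of alpha-ketoglutarate dehydrogenase, from 845 and 892 to 449.9 and 404 CPM. Dehydrogenases that feed the respiratory chain, listed with CYC1, had 2 called higher and 4 lower among 7. The external NADH dehydrogenase gene NDE2 was at 199 and 227 CPM in aerobic and 20.4 and 33.3 CPM in oxygen-limited cultures (log2 fold change -2.98, SE 0.23, adjusted p = 3.76e-05), and NDE1 and NDI1, the external and internal ones, had log2 fold changes of -1.93 and -1.12. GUT2, the mitochondrial glycerol-3-phosphate dehydrogenase, fell by 1.04.

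The later complexes of the chain and ATP synthase had other calls. Cytochrome c oxidase had 7 of 9 nuclear genes called higher and none lower, with a median of 1.18. ATP synthase had 10 of 15 called higher and 1 lower, with a median of 0.84. COX7 was at 585 and 592 CPM in aerobic and 2374 and 1282 CPM in oxygen-limited cultures (log2 fold change 1.63, SE 0.28, adjusted p = 0.00165), and ATP18 was at 451 and 396 CPM in aerobic and 1967 and 1112 CPM in oxygen-limited cultures (log2 fold change 1.86, SE 0.27, adjusted p = 0.000687). Of the catalytic subunits, ATP1, the alpha subunit, was called lower (-0.85), and ATP2, the beta subunit, was not called (-0.39). In the cytochrome bc1 complex the small subunits QCR6, QCR7, QCR8 and QCR9 were called higher, while CYT1 and RIP1, cytochrome c1 and the iron-sulfur protein, were called lower (-1.08 and -0.91), and COR1 and QCR2, its core proteins, were not called (-0.33 and -0.27).

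These respiratory increases moved with gene length and with 1 library, whose parts in the result were not tested. The median gene length was 252 bases for cytochrome c oxidase and 375 for ATP synthase. With the length trend removed, 3 of 9 and 3 of 15 genes were called higher, with medians of 0.46 and 0.34, and QCR6, QCR7, QCR8 and QCR9 lost their calls. Without oxygen-limited replicate 1 the medians were 0.60 and 0.53, and without replicate 2 they were 1.61 and 1.09. Ubiquinone synthesis, which supplies the chain's mobile electron carrier, had 7 of 10 genes called higher and 1 lower. These counts were the same with the length trend removed, but this list also moved with the oxygen-limited replicate. Its median was 0.97 without oxygen-limited replicate 1 and 0.55 without replicate 2, and replicate 2 was the higher one for all 10 genes. COQ5, a methyltransferase of that pathway, rose from 219 and 210.5 to 408 and 547 CPM, and COQ9 fell from 109 and 114 to 53.7 and 88.1 CPM, a call lost without aerobic replicate 1 or 2 (adjusted p = 0.0589 and 0.0782).

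Mitochondrial ribosomal protein genes rose almost without exception. Of 70 tested, 69 were called higher and none lower, with a median of 1.5. RSM19, of the small subunit, was at 62.9 and 60.5 CPM in aerobic and 404 and 577 CPM in oxygen-limited cultures (log2 fold change 2.99, SE 0.20, adjusted p = 2e-05). MRPL39, of the large subunit, was at 113 and 96.6 CPM in aerobic and 613 and 904 CPM in oxygen-limited cultures (log2 fold change 2.86, SE 0.24, adjusted p = 6.23e-05). RSM23, a longer gene of 1620 bases, was not called, at 131 and 124 CPM in aerobic and 111 and 138 CPM in oxygen-limited cultures. The list's median was 1.04 with the length trend removed, where 65 genes were called higher, and it was 1.64 and 1.37 without oxygen-limited replicate 1 or 2.

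Cytosolic ribosomal protein genes rose as well, unequally in the replicates. Of 137 listed, 90 were tested, and 80 were called higher and 1 lower, with a median of 1.39. Many of these genes exist as near-identical pairs whose shared reads were left out of the counts, so single values are uncertain. Their summed level was 57082 and 49352 CPM in the aerobic libraries and 198789 and 103358 CPM in the oxygen-limited ones. RPP1A, a stalk protein, was at 551 and 529 CPM in aerobic and 5128 and 1869 CPM in oxygen-limited cultures (log2 fold change 2.69, SE 0.44, adjusted p = 0.00118). RPL29, of 180 bases, was at 157 and 157 CPM in aerobic and 2122 and 946 CPM in oxygen-limited cultures (log2 fold change 3.29, SE 0.41, adjusted p = 0.000322). RPS9A was the 1 gene called lower (log2 fold change -0.57, adjusted p = 0.00985), a call lost without aerobic replicate 1 (adjusted p = 0.0582). The median was 0.91 without oxygen-limited replicate 1, 1.76 without replicate 2, and 0.92 with the length trend removed.

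Ribosome biogenesis factors, which assemble these proteins into ribosomes, had 23 of 75 genes called lower, a share near the 30.8% of all genes, and 4 called higher, against 31.2% of all genes. Their median was -0.52. NSR1, a nucleolar protein of ribosomal RNA processing, was at 286 and 226 CPM in aerobic and 103 and 33.0 CPM in oxygen-limited cultures (log2 fold change -1.92, SE 0.43, adjusted p = 0.00541). The counts depended on the oxygen-limited replicate. Without replicate 1, 64 genes were called lower, and without replicate 2, 28 were, beside 13 higher. Of 33 proteasome genes, 7 were called higher and 14 lower, and with the length trend removed 1 and 16.

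Glycolysis changed in parts. Of 7 genes from hexokinase to triose phosphate, 4 fell and 2 rose, with a median of -0.72. The hexokinase HXK2, which prevails on high glucose, was at 693 and 648 CPM in aerobic and 391 and 304 CPM in oxygen-limited cultures (log2 fold change -0.95, SE 0.17, adjusted p = 0.00215), and HXK1, its isozyme on poor carbon sources, was at 1809 and 2059.6 CPM in aerobic and 4302 and 6571 CPM in oxygen-limited cultures (log2 fold change 1.49, SE 0.29, adjusted p = 0.0027). PFK1 and PFK2, the subunits of phosphofructokinase, had log2 fold changes of -0.72 and -0.83. In the lower part 4 genes rose, and CDC19, the main pyruvate kinase, fell by 1.03. TDH1, a glyceraldehyde-3-phosphate dehydrogenase, was at 299.7 and 260.4 CPM in aerobic and 551 and 1176 CPM in oxygen-limited cultures (log2 fold change 1.62, SE 0.32, adjusted p = 0.00313). TDH3 and PGK1 were not called (0.32 and -0.09). The lower part's median was 0.32, but 0.65 without oxygen-limited replicate 1 and -0.05 without replicate 2, and TDH2 and GPM1 lost their calls with the length trend removed. Without aerobic replicate 1 or 2 their adjusted p was 0.114 and 0.138 for TDH2 and 0.0919 and 0.092 for GPM1.

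Ethanol formation had 2 called higher, near the 31.2% over all genes, and 1 lower among 7. ADH1, the main fermentative alcohol dehydrogenase, was at 744 and 632 CPM in aerobic and 1912 and 2911 CPM in oxygen-limited cultures (log2 fold change 1.81, SE 0.26, adjusted p = 0.000698). ADH1 shares sequence with ADH2, whose level moved the other way, and reads that map to both were left out. The decarboxylase genes PDC1 and PDC5 were not called (-0.29 and -0.21). Some hexose transporters share sequence too, and of 9 tested out of 18, 2 were called higher and 3 lower. HXT1, HXT3 and HXT4 were among those not tested. HXT2, a high-affinity transporter, was at 1489 and 1248 CPM in aerobic and 75.8 and 92.7 CPM in oxygen-limited cultures (log2 fold change -4.02, SE 0.23, adjusted p = 1.27e-05), and HXT5, which serves slow growth, was at 908 and 1161 CPM in aerobic and 35.4 and 44.1 CPM in oxygen-limited cultures (log2 fold change -4.70, SE 0.19, adjusted p = 2.86e-06). HXT10, a further member of the family, was at 15.5 and 20.7 CPM in aerobic and 130.1 and 243 CPM in oxygen-limited cultures (log2 fold change 3.36). HXT14, another, was at 3.12 and 2.02 CPM in aerobic and 30.9 and 30.1 CPM in oxygen-limited cultures (log2 fold change 3.57). Both aerobic libraries were high for HXT2 and HXT5 and low for HXT10 and HXT14. HXT7, a high-affinity transporter, was not called (log2 fold change 0.10, adjusted p = 0.717), nor was SUC2, invertase (log2 fold change 0.20, adjusted p = 0.429). Genes of glucose sensing and repression had 3 called higher, near the 31.2% over all genes, and 2 lower among 10.

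The pentose phosphate pathway, a source of NADPH and ribose, fell in 7 of 11 genes and rose in 3. GND1, the main 6-phosphogluconate dehydrogenase, was at 839 and 759.7 CPM in aerobic and 201 and 226 CPM in oxygen-limited cultures (log2 fold change -1.90, SE 0.14, adjusted p = 3.19e-05), whereas ZWF1, the enzyme before it, rose from 268 and 289.6 to 459 and 634 CPM (log2 fold change 0.97, SE 0.18, adjusted p = 0.00233). TKL2 and NQM1, the minor transketolase and transaldolase, had log2 fold changes of -2.46 and -2.36. Of 11 listed glycerol genes 9 were tested, and GPD1 and GPD2 were not. Among the 9, 5 fell, including STL1, the glycerol importer (-2.18), and the phosphatases GPP1 and GPP2, which make glycerol (-0.37 and -0.29). FPS1, the glycerol channel, was called higher (0.34). The calls of these 3 small changes were lost in some fits that left out 1 library. All 3 were lost without aerobic replicate 1, and those of GPP2 and FPS1 without aerobic replicate 2. Those of GPP1 and GPP2 were lost without oxygen-limited replicate 1. Such fits leave 1 replicate in a group, so a lost call does not show that a change depended on that library.

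Storage carbohydrate genes rose in 8 of 17 cases and fell in 4. GSY1, a glycogen synthase, was at 65.3 and 59.7 CPM in aerobic and 582 and 664 CPM in oxygen-limited cultures (log2 fold change 3.32, SE 0.15, adjusted p = 4.09e-06), while its isozyme GSY2 was not called (log2 fold change 0.25, adjusted p = 0.372). The branching enzyme gene GLC3, the phosphorylase gene GPH1 and the debranching enzyme gene GDB1 had log2 fold changes of 1.55, 1.29 and 1.76. Genes of glycogen synthesis and of its breakdown were thus both higher. TPS1, which makes trehalose phosphate, was not called (log2 fold change 0.46, adjusted p = 0.0589), and TPS2, ATH1 and NTH2, which act later in trehalose metabolism, were called lower, calls that were lost with the length trend removed, without aerobic replicate 2 (adjusted p = 0.105, 0.115 and 0.122) and without oxygen-limited replicate 1 (adjusted p = 0.0625, 0.0513 and 0.0844). Those of TPS2 and ATH1 were lost without aerobic replicate 1 too (adjusted p = 0.0685 and 0.0784). With the length trend removed 12 storage genes were called higher and 1 lower.

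Chaperone genes of the heat shock response fell in 9 of 18 cases. HSP26, a small chaperone, was at 2731 and 3365 CPM in aerobic and 91.6 and 242 CPM in oxygen-limited cultures (log2 fold change -4.19, SE 0.43, adjusted p = 0.000144), and SSA3 and SSA4, the stress-induced Hsp70 genes, had log2 fold changes of -2.10 and -2.30. HSP12, a small stress-induced protein that binds membranes, was at 1255 and 1535 CPM in aerobic and 272 and 2356 CPM in oxygen-limited cultures and was not called (log2 fold change -0.09, adjusted p = 0.93). Its oxygen-limited replicates lay on either side of the aerobic ones. HSP10, the mitochondrial cochaperonin, rose by 1.51, and HSP60, its partner, was not called (0.03).

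Oxidative stress defence had 8 genes called higher, near the 31.2% over all genes, and 5 lower among 23. With the length trend removed, 7 were called higher and 8 lower. The cytosolic superoxide dismutase gene SOD1 was at 746 and 714 CPM in aerobic and 2662 and 2129 CPM in oxygen-limited cultures (log2 fold change 1.71, SE 0.18, adjusted p = 0.000149), and the mitochondrial one, SOD2, was not called (log2 fold change -0.27, adjusted p = 0.118). The glutaredoxin genes GRX1 and GRX2 rose by 1.89 and 1.73. The catalase gene CTT1 and the regulator gene YAP1 fell by 0.91 and 1.29 on the log2 scale.

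Iron uptake genes rose in 11 of 22 cases and fell in 4. FIT3 (SCEN_O05380, contig CP046095.1, 1054686 to 1055300, minus strand), a cell wall mannoprotein that retains siderophore-bound iron, was at 23.1 and 24.1 CPM in aerobic and 838 and 1190.3 CPM in oxygen-limited cultures (log2 fold change 5.42, SE 0.29, adjusted p = 1.02e-05). SIT1 and ENB1, siderophore transporters, had log2 fold changes of 1.96 and 1.61, and FET3, the multicopper oxidase of high-affinity iron uptake, was at 113 and 108 CPM in aerobic and 361 and 215 CPM in oxygen-limited cultures (log2 fold change 1.38, SE 0.22, adjusted p = 0.00101). Both oxygen-limited libraries lay above both aerobic ones for FIT3 and FET3. In the 4 anaerobic libraries FIT3 was at 40.7 and 30.3 CPM with both supplements and at 49.3 and 75.4 CPM with Tween 80 alone. SCEN_O05370, the gene listed beside FIT3 on the same contig and paired with no S288C entry, was at 24.7 and 25.4 CPM in aerobic and 1480.0 and 1554 CPM in oxygen-limited cultures (log2 fold change 5.92, SE 0.26, adjusted p = 3.46e-06). ISU1, the scaffold for iron-sulfur clusters, and FRE4, a ferric reductase, were called lower (-1.47 and -1.58).

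Zinc and copper genes had 3 called higher and 7 lower among 12. ZAP1, the zinc-responsive activator, fell from 51.6 and 58.2 to 21.6 and 22.4 CPM, and its target ZPS1 fell by 1.95 on the log2 scale. The high-affinity zinc transporter ZRT1 fell by 0.90, a call lost without aerobic replicate 2 (adjusted p = 0.0897), and the low-affinity ZRT2 rose by 0.55. ATX1, the copper chaperone that supplies the iron uptake oxidase, was at 65.8 and 68.6 CPM in aerobic and 439.8 and 340.3 CPM in oxygen-limited cultures (log2 fold change 2.54, SE 0.19, adjusted p = 3.45e-05). Phosphate genes fell in 8 of 13 cases, with PHO89, the sodium-phosphate cotransporter, at 245 and 259 CPM in aerobic and 25.9 and 24.6 CPM in oxygen-limited cultures (log2 fold change -3.32, SE 0.12, adjusted p = 1.55e-06). PHO84, the proton-coupled transporter, fell by 0.51, a call lost without aerobic replicate 2 (adjusted p = 0.0601) and with the length trend removed (adjusted p = 0.136), and VTC1, of the polyphosphate polymerase, rose by 1.32.

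Nitrogen genes had 5 called higher and 6 lower among 16, shares near the 31.2% and 30.8% over all genes, so only single genes are described. PUT4, the proline permease, was at 336 and 340.4 CPM in aerobic and 31.2 and 43.1 CPM in oxygen-limited cultures (log2 fold change -3.18, SE 0.16, adjusted p = 8.54e-06), and DUR3, a urea transporter, fell from 221 and 221 to 47.3 and 99.7 CPM (log2 fold change -1.58, SE 0.28, adjusted p = 0.00186). DUR12 (urea amidolyase, the first enzyme of urea use) was at 718 and 668 CPM in aerobic and 455 and 2309.7 CPM in oxygen-limited cultures and was not called (log2 fold change 1.00, adjusted p = 0.173), and its oxygen-limited replicates lay below and above the aerobic ones. GLN1, glutamine synthetase, rose from 1048 and 952 to 2685 and 3504 CPM, and DAL80, a repressor of nitrogen catabolism, by 2.33. GAP1, the general amino acid permease, was called higher (1.76), but the call was lost without oxygen-limited replicate 2, with a log2 fold change of 0.25 (adjusted p = 0.053), and without aerobic replicate 1 or 2 (adjusted p = 0.115 and 0.108).

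Sulfur assimilation had 7 of 15 genes called higher and 3 lower, against 31.2% and 30.8% of all genes. MET28, a cofactor of its activator, was at 128 and 119 CPM in aerobic and 531 and 445 CPM in oxygen-limited cultures (log2 fold change 1.98, SE 0.15, adjusted p = 3.62e-05). In NAD synthesis 6 of 12 genes rose and 3 fell, the latter being QNS1, NMA2 and NPT1 (-0.81, -0.59 and -0.37). The genes that rose included BNA1, BNA2 and BNA4, which encode oxygen-using enzymes of the kynurenine pathway (1.98, 0.81 and 1.17). BNA1 was at 194 and 179.9 CPM in aerobic and 783 and 689.6 CPM in oxygen-limited cultures (log2 fold change 1.98, SE 0.17, adjusted p = 6.67e-05). TNA1, the nicotinic acid transporter, rose by 1.46. Of 16 biotin, thiamine and pantothenate genes, 8 fell and none was called higher (1 was without either oxygen-limited replicate), with BIO2 (biotin synthase) at -0.56 and FEN2 (pantothenate transporter) at -1.23. Sphingolipid genes had 4 called higher, near the 31.2% over all genes, and 2 lower among 13, with SCS7, a hydroxylase that uses oxygen, at 0.86.

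The 12 highest fold changes named by the same rule of size were at 4.33 or above and included several genes known from spore formation. These were OSW1 and LDS1, of the outer spore wall, and PFS1, of prospore membrane formation, all barely expressed in air. LDS1 was at 1.6 and 1.94 CPM in aerobic and 45.4 and 41.0 CPM in oxygen-limited cultures (log2 fold change 4.59, SE 0.16, adjusted p = 1.24e-06). OSW1 was at 0.56 and 0 CPM in aerobic and 21.9 and 32.6 CPM in oxygen-limited cultures (log2 fold change 6.60, SE 0.52, adjusted p = 4.31e-05), with the fit resting on few aerobic reads. In a wider list of 18 sporulation genes, 11 were called higher and 4 lower, against 31.2% and 30.8% of all genes. The median was 0.69. The list includes OSW1 again and was written with earlier results of these data known, so it is no separate support. IME1, the master activator of meiosis, was at 18.2 and 21.8 CPM in aerobic and 4.36 and 6.44 CPM in oxygen-limited cultures and was called lower (log2 fold change -1.88, SE 0.21, adjusted p = 0.000182). IME2, the kinase it activates, fell by 0.57, a call lost without aerobic replicate 2 or oxygen-limited replicate 2 (adjusted p = 0.0829 and 0.0797), and NDT80, the activator of middle sporulation genes, was not called (log2 fold change 0.15, adjusted p = 0.39). SPS4, a gene induced in sporulation, rose from 17.6 and 13 to 95.9 and 83.3 CPM.

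SCEN_I01990, a gene of 4104 bases with no S288C entry in the files, had the highest log2 fold change of the 12, at 10.2 and 9.34 CPM in aerobic and 960.1 and 944 CPM in oxygen-limited cultures (log2 fold change 6.61, SE 0.17, adjusted p = 7.91e-07). OPT2, an oligopeptide transporter, was at 15.6 and 20.7 CPM in aerobic and 292 and 437 CPM in oxygen-limited cultures (log2 fold change 4.33, SE 0.23, adjusted p = 9.3e-06). SCEN_G05600, which the files pair with both YBR299W and YGR292W, the maltase genes MAL32 and MAL12 in RefSeq, was at 127 and 138 CPM in aerobic and 2236 and 3367 CPM in oxygen-limited cultures (log2 fold change 4.40, SE 0.26, adjusted p = 1.34e-05). Each had both oxygen-limited libraries far above the aerobic ones. The other 5 were SCEN_O05370 and FIT3, given above, and the unnamed SCEN_E00200, SCEN_B04120 and SCEN_B04130, of which the last 2 are neighbours. The remaining 1, SCEN_Itrna15D, is a transfer RNA gene, at 0.48 and 0.523 CPM in aerobic and 24.3 and 15 CPM in oxygen-limited cultures.

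Within 10 kb of the outermost gene of a contig, 54.2% of 155 tested genes were called higher and 15.5% lower, with a median of 0.62. The shares over all genes were 31.2% and 30.8%. From 20 kb inwards the share called higher was between 30.0% and 31.7%. Seripauperin genes, which encode wall proteins and lie mostly near chromosome ends, had 6 of 12 tested members called higher and none lower, out of 24 listed. With the length trend removed, 5 were called higher and 3 lower. PAU4 was at 0.24 and 0.299 CPM in aerobic and 2.37 and 6.77 CPM in oxygen-limited cultures and was called higher on a few aerobic reads. Their sequences are near-identical and their counts low, so single values are uncertain.

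In K. marxianus the same change of oxygen, glucose and Tween 80 gave a different response, in strain CBS6556 with 2 libraries per group. Over 3885 genes matched 1 to 1, the difference between the responses was called for 2188 genes by an interaction term in edgeR's quasi-likelihood test. The S. cerevisiae fold change was the higher one for 1087 of these (28% of those tested) and the lower one for 1101 (28.3%). Genes called within both species numbered 1134, of which 576 moved the same way and 558 opposite ways. Across the matched genes, which are not independent replicates, Pearson's r between the fold changes was 0.09 and Spearman's rho was -0.01.

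Sterol and glycolytic genes were among those that differed. The 5 oxygen-requiring sterol genes had a median of -2.17 in S. cerevisiae and 2.47 in K. marxianus, and all 5 differences were called. For 6 matched genes of upper glycolysis the medians were -0.61 and 2.26, and for 5 of lower glycolysis 0.16 and 3.35, in that order. Glyoxylate and gluconeogenic genes had medians of -3.92 and -0.93, with the S. cerevisiae value called lower for 5 of 8 genes and higher for 1. Beta-oxidation genes had medians of -2.09 and -4.42, with the K. marxianus value called lower for 9 of 11 genes and higher for 2. ATP synthase genes had medians of 0.84 and -1.39, with all 15 differences called, 14 of them also with the length trends removed. Mitochondrial ribosomal protein genes had medians of 1.52 and -0.23, and 64 of 67 differences were called.

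**Figure D5:**
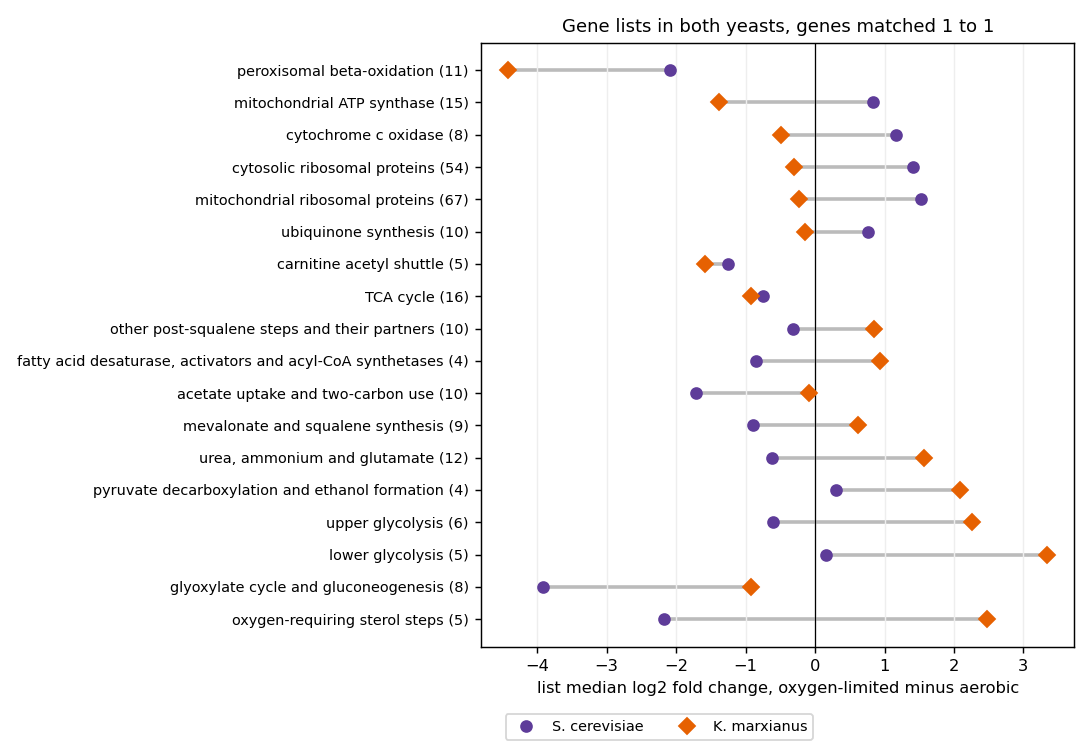
Median log2 fold change (oxygen-limited minus aerobic, x axis) of 18 gene lists over genes matched 1 to 1, in S. cerevisiae and in K. marxianus, joined by a line. The oxygen-requiring sterol genes lie at -2.17 and 2.47, lower glycolysis at 0.16 and 3.35, beta-oxidation at -2.09 and -4.42, and ATP synthase at 0.84 and -1.39.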

How the data were processed

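The deposited count tables list read pairs per gene, not normalized, for a CEN.PK113-7D and a CBS6556 annotation, with gene length. Per the file headers, the authors counted with featureCounts on gene features, with both ends mapped and chimeric pairs left out. No strand option was set, so antisense reads are not told apart, and multi-mapping reads and reads on several genes were left out. Bowtie 1.2.1.1, SAMtools 1.3.1, featureCounts 1.6.0 and edgeR 3.28.1 are named in the submitters' processing notes. The authors' deposited comparison table gives log2 fold changes and average log2 CPM, likelihood ratios (a score), p-values, adjusted p-values and −log10 p, and its test is not stated.

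The 8 S. cerevisiae libraries of the aerobic, oxygen-limited and both supplemented anaerobic groups (9116773 to 13112466 counts) were fitted together with R 4.3.3 and edgeR 4.0.16, using filterByExpr, TMM scaling, the quasi-likelihood test and Benjamini-Hochberg adjustment. The unsupplemented libraries were left out. Residual degrees of freedom were 4, and the common biological coefficient of variation was 12.8%. The SE equals the size of the log2 fold change over the root of the F statistic. The anaerobic groups received 420 mg/L Tween 80 and 10 or 0 mg/L ergosterol, and their levels are given as values only.

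Named genes were the 12 highest and 12 lowest called genes with at least 10 CPM in 1 group and no overlap, members of 50 gene lists, and the 5 largest species differences each way. The comparison, the lists and the tests were chosen with earlier results of these data known. Symbols came from S288C entries in the deposited tables, matched to RefSeq, for 5349 of 5849 tested genes. Of these 5849 genes, 114 overlap another gene. The species test fitted 8 libraries of each yeast, with TMM within species. Scripts were tested on simulated data. DESeq2 1.42.0, other scalings and filters, left-out replicates and a lowess length trend (span 0.3) were alternatives.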

Additional observations from a re-analysis of the deposited data

Results flagged for a closer look

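The log2 fold change of oxygen-limited over aerobic cultures differed between S. cerevisiae and K. marxianus for 2188 of 3885 matched genes. These were called by an interaction term in edgeR's quasi-likelihood test with Benjamini-Hochberg adjustment. Glucose, the Tween supplement and the run code changed with oxygen in both yeasts, so their parts cannot be told apart. The 5 genes with the largest difference in each direction, given as the S. cerevisiae minus the K. marxianus log2 fold change, were the following.

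ALD5, a mitochondrial aldehyde dehydrogenase gene in S. cerevisiae, differed by -9.78 (adjusted p = 1.21e-06). Its K. marxianus match was at 3.37 and 3.99 CPM in aerobic and 2154 and 2208 CPM in oxygen-limited cultures. ADH2 differed by -8.85 (adjusted p = 2.32e-08), and its match was at 501 and 467 CPM in aerobic and 1166 and 1267 CPM in oxygen-limited cultures. ADY2 differed by -7.64, with its match at 242 and 231 CPM in aerobic and 157 and 165 CPM in oxygen-limited cultures. ADH1 rose in both yeasts and differed by -6.83, with its match at 17.8 and 18.8 CPM in aerobic and 7173 and 7408 CPM in oxygen-limited cultures. SKS1, a kinase gene, differed by -6.75.

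In the other direction, ALD4 differed by 9.51 (adjusted p = 2.61e-08). It fell in both yeasts, and its K. marxianus match was at 19416 and 18488 CPM in aerobic and 9.32 and 9.64 CPM in oxygen-limited cultures. LDS1 differed by 8.09, FIG1, a mating gene, by 7.13, SPS19, a peroxisomal reductase gene, by 6.84 and OSW1 by 5.91. The LDS1 and OSW1 matches were below 10 CPM in every K. marxianus library compared. The direction of all 10 differences was the same with the length trends removed, and all 10 were again called.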

How the results depend on the processing

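Beside 3628 genes called (1824 higher and 1804 lower), the unsupplemented anaerobic libraries in the fit left 827 (468 and 359). A test against an absolute log2 fold change of 1 left 647 (406 and 241). The length trend, an alternative chosen after seeing the data, gave 3250 genes when removed over 8 libraries and 2356 (1225 and 1131) over the 4 compared, with 10 and 2 genes called in the opposite direction. The cause of these shifts was not tested. DESeq2 called 3591, upper quartile scaling 3701 (1707 and 1994, with the median of all genes at -0.09) and a fit of the 4 libraries alone 2923. Leaving out 1 library at a time gave 2717 to 4082 genes, where a lone replicate is assumed to vary like the other groups. Of 562 calls among list members and genes named by size, 344 were lost with the unsupplemented libraries included (CYC7, HEM13, ADH1, GLN1 and IME1 among them). With the 4 libraries alone 106 were lost, and with the length trend removed 102. Losses without 1 replicate cannot be compared between the groups. Leaving out an oxygen-limited replicate also removes the spread between the replicates of that group, which was the larger (standard deviation 0.468 against 0.157). Over 14 settings (the anaerobic replicates were not left out here), 336 recomputed values of the 24 genes named by size kept direction and call. These genes were picked as called genes with the largest changes and no overlap, so that outcome was largely set by the rule. Over 13 of these settings (all but the test against a log2 fold change of 1), list medians stayed within the replicate spread 579 times and left it 71 times. The species difference of the response was called for 2423 genes with 4 libraries per yeast and for 1976 with the length trend removed. No paired analysis was possible because the labels pair no aerobic with an oxygen-limited culture. With 2 libraries per group, whose oxygen-limited members differ, genes with small changes are the least certain.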
